A study of Mus musculus with 2 samples.

Results

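Genes for selectin ligands and for CD44 were examined in ILC2 progenitors, the bone marrow precursors of group 2 innate lymphoid cells. The set holds 7 genes, Selplg, Fut4, Fut7, Gcnt1, St3gal4, Cd44 and Cd24a, taken by symbol from the 27179 genes of each deposited file, and all 7 had a row. No selectin gene is among the 7. The study holds 1 group and no other condition: cells sorted by flow cytometry from the bone marrow of C57BL/6 mice at 8 weeks of age, labelled wild type in the file headings, in 2 RNA sequencing libraries that each pool 8 mice. The sources used here do not say which antibodies were used for sorting, nor the sex of the mice.

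Selectins are adhesion receptors that slow leukocytes on the vessel wall, and they bind sugars rather than bare protein. A scaffold protein such as PSGL-1, the product of Selplg, has to receive branched O-glycans, which are then capped with sialic acid and fucose to form sialyl Lewis x. Gcnt1 makes the branch, St3gal4 adds sialic acid, and Fut7 and Fut4 add fucose. CD44 binds hyaluronan, a sugar polymer of the marrow matrix, and a glycosylated form of it can also bind E-selectin. Cd24a encodes a small, heavily glycosylated, lipid-anchored protein that is known as heat-stable antigen and can bind P-selectin.

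Pool 1 and pool 2 name the libraries by accession. The heading inside each file carries the code of the other sample, so 0 of 2 headings matched their own sample. If the headings are right, the names of the pools change places in every difference given here. Library totals, not stated in the sources but recovered from the RPKM values, were 20216146 reads in pool 1 and 19834586 in pool 2. At these totals, 3 reads over 1 kb come to 0.148 and 0.151 RPKM, the deposited unit of reads divided by gene length and library total. All 12 listed ILC2 markers, among them Gata3, Il7r and Il1rl1, were at 1 RPKM or more in both pools, and their summed level was 3934 RPKM in pool 1 and 3988 RPKM in pool 2. Within these near-equal sums, 5 markers were higher and 7 lower in pool 1. Id2 was 2.48-fold higher there. Il1rl1 was 1.51-fold, Klrg1 1.44-fold, Ly6a 1.32-fold and Il7r 1.31-fold lower. With 1 library a side there is no test between the pools. Detection required at least 1 RPKM in each pool, and a gene counted as apart where the ratio of RPKM + 0.1 reached 1.5-fold.

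Promoter sequence is shown for the 2 fucosyltransferase genes and for Cd44, because the fucosyltransferases stood at unlike levels and Cd44 was second furthest apart of the 7 between the pools. In human T cells, FUT7 is known to be repressed by GATA-3 and promoted by T-bet, so the letters of a GATA motif (GATAA) and of a T-box half-site (AGGTG) were looked for on both strands. The windows are the 250 bases before a RefSeq start in GRCm38.p6, read 5′ to 3′ on the gene's strand, and capitals mark both motifs.
Fut7, chr2:25422992-25423241, plus strand: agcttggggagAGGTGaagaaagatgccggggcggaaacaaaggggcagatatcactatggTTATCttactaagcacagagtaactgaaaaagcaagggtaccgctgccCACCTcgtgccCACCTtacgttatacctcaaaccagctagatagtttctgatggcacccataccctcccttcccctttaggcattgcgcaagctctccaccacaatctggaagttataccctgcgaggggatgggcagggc
Fut4, chr9:14752123-14752372, minus strand: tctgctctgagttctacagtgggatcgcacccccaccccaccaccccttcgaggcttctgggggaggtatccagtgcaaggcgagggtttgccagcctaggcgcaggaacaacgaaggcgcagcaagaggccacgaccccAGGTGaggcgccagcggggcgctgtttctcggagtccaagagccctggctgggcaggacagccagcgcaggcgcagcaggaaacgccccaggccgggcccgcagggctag
Cd44, chr2:102901666-102901915, minus strand: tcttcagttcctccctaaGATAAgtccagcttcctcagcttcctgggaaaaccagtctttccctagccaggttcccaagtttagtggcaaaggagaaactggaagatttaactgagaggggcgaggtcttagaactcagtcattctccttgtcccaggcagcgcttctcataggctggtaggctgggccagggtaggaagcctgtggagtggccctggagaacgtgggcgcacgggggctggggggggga

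The Fut7 window held 1 GATA match, beginning at base -189 from the start, and 3 T-box half-sites, at -239, -141 and -130. The Fut4 window held no GATA match and 1 half-site, at -110, which is also part of an E-box (CAGGTG). The Cd44 window held 1 GATA match at -232 and no half-site. Over all 32851 RefSeq windows of this length, 22.6% held a GATA match and 46.0% a half-site, so neither is rare, and a match shows letters and not a bound factor. Sequence composition also differed: the Fut4 window was 67.6% G and C with 16 CpG, against 52.4% with 7 in Fut7 and 56.4% with 5 in Cd44. The median over all windows was 52.4% and 6. Fut7 has a second RefSeq start, at 25423694, with neither motif. Both Fut7 windows lie inside the annotated span of the gene, 25422351 to 25426374. No window before the first base of that span was searched. Which start these cells use cannot be read from values per gene. Of the 7 genes, 5 had a promoter in the RefSeq table, with 8 starts. The St3gal4 window had neither motif and was the richest in CpG, with 25. Of the 3 Gcnt1 windows, the most upstream held 1 GATA match and the other two held 2 and 1 half-sites.

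All 7 genes were detected, against 40.5% of all genes, and they spanned a wide range of levels per length. The scaffold gene Selplg stood far above the 4 enzyme genes of the set. Selplg (Entrez ID 20345), which lies on chromosome 5 from 113817798 to 113832528 in mm10, stood at 174 RPKM in pool 1 and 179 RPKM in pool 2, a mean of 177 ± 3.72 (SD, n = 2). These values exceed those of 98.6% of all genes in pool 1 and 98.7% in pool 2. The pools were 1.03-fold apart, and 85.9% of the 11013 detected genes were further apart than that.

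Cd44 (chromosome 2, 102811141 to 102901669) was second, at 35.5 RPKM in pool 1 and 51.8 RPKM in pool 2, a mean of 43.6 ± 11.5 (SD, n = 2). Selplg exceeded it 4.91-fold in pool 1 and 3.47-fold in pool 2. The counts are per gene, so the standard and the longer spliced forms of CD44 are summed in these values. Cd24a (chromosome 10, 43579169 to 43584265) was at 20.2 RPKM in pool 1 and 34.8 RPKM in pool 2, a mean of 27.5 ± 10.3 (SD, n = 2). Its 2 values lay on either side of those of St3gal4, so the order of these 2 genes did not hold beyond their spread.

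Among the 4 enzymes of the set, St3gal4 (chromosome 9, 35046576 to 35116864), which adds sialic acid to terminal galactose, was highest at 24.3 RPKM in pool 1 and 22.8 RPKM in pool 2 (mean 23.6 ± 1.09, SD, n = 2). A transcript annotated on the opposite strand, 4930581F22Rik, shares 412 exonic bases with St3gal4 and was at 1.03 RPKM in either pool. The sources used here do not state the strand setting of the counting, so reads of the pair may have been mixed. Fut7 (chromosome 2, 25422351 to 25426374), the leukocyte fucosyltransferase that completes sialyl Lewis x, was at 14.2 RPKM in pool 1 and 19.8 RPKM in pool 2 (mean 17.0 ± 3.92, SD, n = 2). It is the gene whose window above held both motifs.

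Gcnt1 (chromosome 19, 17326141 to 17372844), which starts the branched O-glycan, was at 9.93 RPKM in pool 1 and 12.9 RPKM in pool 2 (mean 11.4 ± 2.09, SD, n = 2). Fut4 (chromosome 9, 14748459 to 14752122), the second leukocyte enzyme for this fucose, was the lowest of the 7 at 2.25 RPKM in pool 1 and 3.25 RPKM in pool 2 (mean 2.75 ± 0.702, SD, n = 2). Fut4 was thus above the detection level but below the median detected gene, which averaged 14.6 RPKM. A processed pseudogene, Fut4-ps1, was listed at 0 in both pools, and how reads matching both copies were counted is not given. Apart from Cd24a and St3gal4, no neighbouring pair in the order of levels had overlapping ranges, and Selplg, Cd44, Fut7, Gcnt1 and Fut4 kept that order in both pools.

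**Figure D1:**
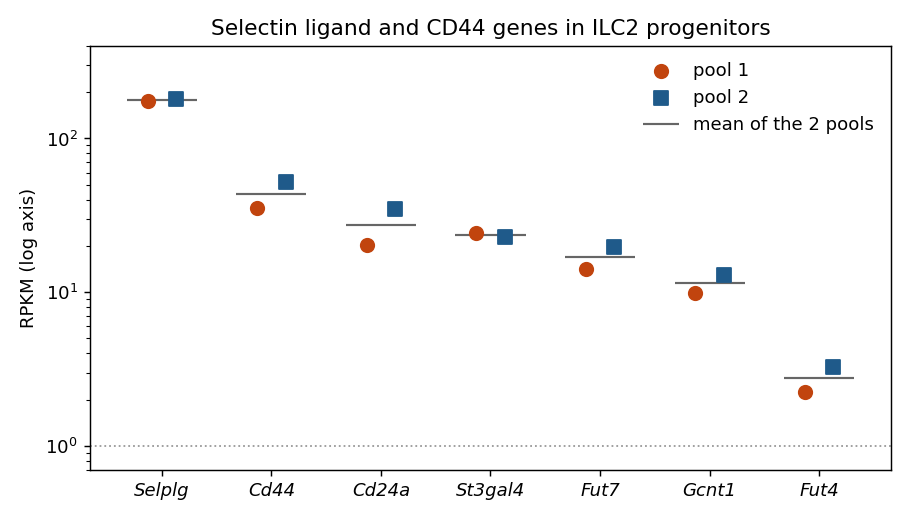
Level of each gene in RPKM (log axis) in pool 1 (circles) and pool 2 (squares), with the mean of the 2 pools as a bar and the detection level of 1 RPKM dotted. Selplg stands apart at 174 and 179 RPKM, Fut4 is lowest at 2.25 and 3.25 RPKM, and the order of Cd24a and St3gal4 turns between the pools.

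Among the relatives listed for each, the 4 enzymes held very different places. Only Gcnt1, Gcnt3 and Gcnt4 were taken for the Gcnt sum, and other Gcnt genes were not looked at. Of these 3, Gcnt1 held 99.1% of the summed RPKM in pool 1 and 99.5% in pool 2. Gcnt4 was at 0.0874 and 0.0594 RPKM, and Gcnt3 was listed at 0 in both pools. Gcnt1 was the only one of these 3 detected.

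St3gal4 was second of the 6 St3gal genes in both pools, but it held only 6.77% of the family sum in pool 1 and 6.49% in pool 2. St3gal6, an enzyme that also contributes to selectin ligands in mouse leukocytes, was at 303 RPKM in pool 1 and 284 RPKM in pool 2, which is 84.2% and 80.8% of the sum. St3gal6 thus exceeded St3gal4 12.4-fold in pool 1 and 12.5-fold in pool 2, and it also lay above Selplg. The remaining members, St3gal1, St3gal2, St3gal3 and St3gal5, were each under 14 RPKM. St3gal5, which makes the ganglioside GM3, was the least even of them at 2.81 RPKM in pool 1 and 9.12 RPKM in pool 2.

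Among 8 fucosyltransferase genes from Fut1 to Fut11, Fut7 was second, behind Fut8, and Fut4 came next after Fut11 in both pools. Fut8, which puts fucose on the core of N-glycans and does not make Lewis structures, was at 45.0 RPKM in pool 1 and 42.0 RPKM in pool 2. Fut7 held 19.7% of the family sum in pool 1 and 24.7% in pool 2, and Fut4 held 3.11% and 4.06%. Fut7 exceeded Fut4 6.31-fold in pool 1 and 6.09-fold in pool 2, a ratio that moved less between the pools than either gene did. Fut9, the other mouse enzyme able to make Lewis x, was listed at 0 in both pools, as were Fut1 and Fut2.

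**Figure D2:**
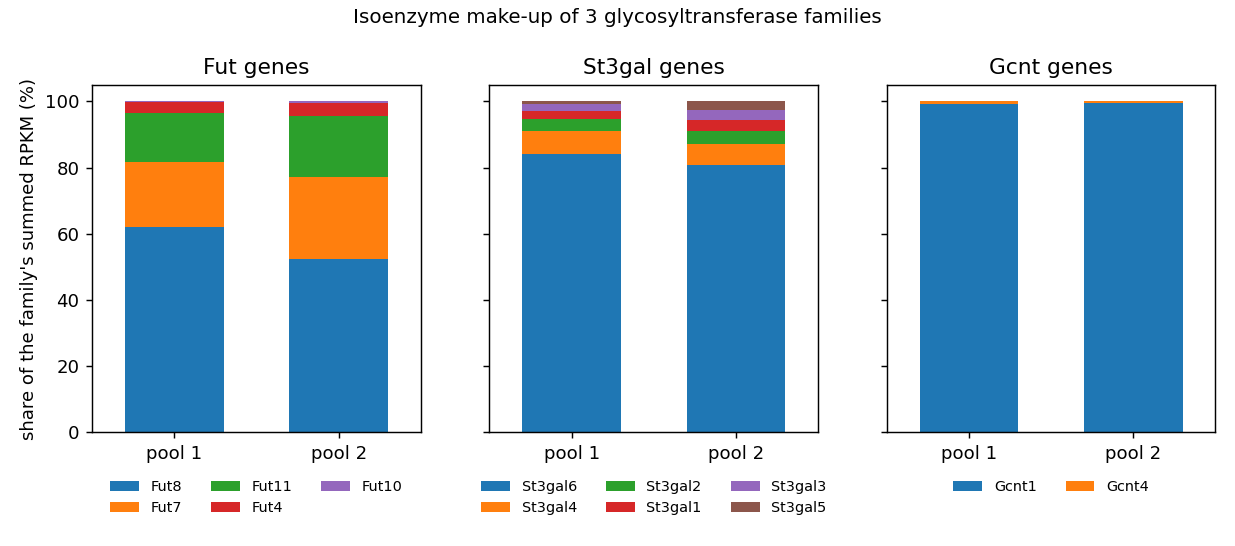
Share of the summed RPKM (%) of the listed Fut, St3gal and Gcnt genes held by each gene, in pool 1 and pool 2, for genes above 0. St3gal6 fills over 80% of its family in both pools while St3gal4 holds 6.77% and 6.49%. Gcnt1 fills nearly all of the sum of Gcnt1, Gcnt3 and Gcnt4, the only Gcnt genes taken.

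Cd24a was the furthest apart of the 7 between the pools. As deposited, 6 of the 7 were lower in pool 1 and St3gal4 was higher, where 57.3% of all detected genes were lower in pool 1. With each of 3 other scalings Selplg turned, leaving 5 of 7 lower, beside 47.9% to 50.0% of detected genes. The 50.0% was fixed in advance, because the median-of-ratios scaling sets the median ratio of these detected genes to equality. The median log2 ratio, pool 1 over pool 2, was -0.47 over the 7 genes and -0.04 over all detected genes. Called apart at 1.5-fold was 1 of 7, Cd24a, lower in pool 1, where the background was 8.45% of detected genes in either direction and 5.86% in that one. At 2-fold it was 0 of 7, against 2.56% of detected genes, 0.962% higher in pool 1 and 1.6% higher in pool 2.

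Cd24a had a log2 ratio of -0.78, or 1.72-fold lower in pool 1, from at least 185 reads in pool 1 and 313 in pool 2. The ratio of these reads per total was 0.580, with an exact 95% interval of 0.481 to 0.698. Reads recovered from RPKM values are lower bounds, so these intervals are the widest that counting allows, and they cover counting error only. Of 2110 detected genes within 0.5 log2 units of its level, 1.90% were further apart.

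Cd44 followed at -0.54, with 4059 and 5807 reads and a ratio of 0.686 (exact 95% interval 0.659 to 0.714). It stayed just short of 1.5-fold at 1.46-fold, and 4.13% of 1647 genes of like level were further apart. Fut4 was at -0.51 and Fut7 at -0.47, with read ratios of 0.694 (0.566 to 0.850) and 0.720 (0.645 to 0.803). The 2 fucosyltransferases thus differed between the pools in the same direction and to a like degree. Of genes near the level of Fut4, 25.1% were further apart, and of those near Fut7 7.74% were.

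Gcnt1 was at -0.37 with a read ratio of 0.771 (0.663 to 0.896). St3gal4 was at 0.09, with a read ratio of 1.07 and an interval that spans equality, 0.975 to 1.17. Selplg was at -0.04, with 9169 and 9268 reads and a read ratio of 0.971 (0.943 to 0.999). Since the intervals hold no spread between pools of mice, one that leaves out 1 compares these libraries and not the mice.

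**Figure D3:**
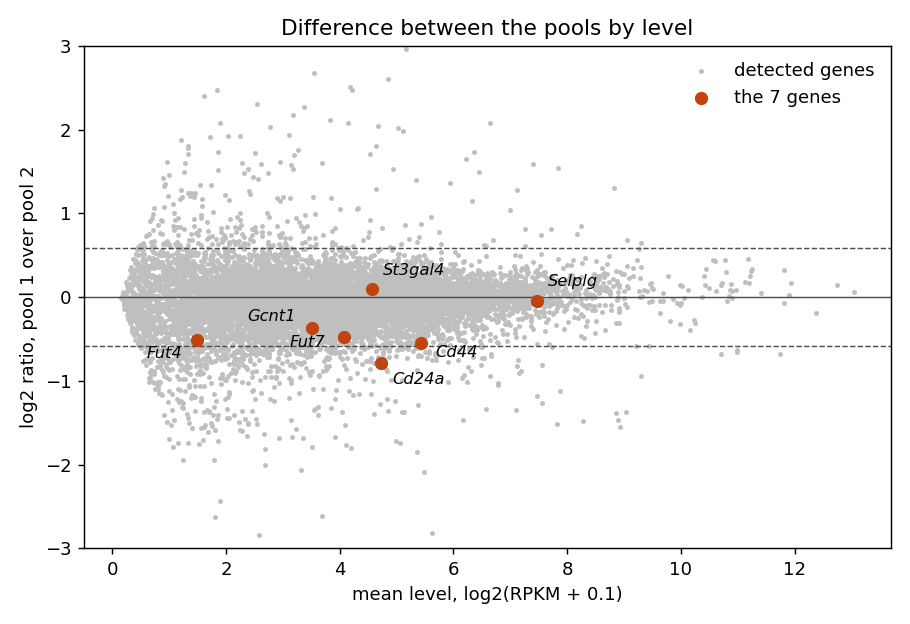
Log2 ratio of RPKM + 0.1, pool 1 over pool 2, against the mean level, log2(RPKM + 0.1), for 11013 detected genes (grey) and the 7 genes (red), with 1.5-fold lines dashed and 16 genes beyond the axis limits of 3. Cd24a lies below the lower line at -0.78, Cd44 just above it at -0.54, and St3gal4 and Selplg near 0.

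Marker genes of other marrow cells also differed between the pools. Genes of this set are known to be expressed by other marrow cells too, granulocytes among them, so markers of such cells are given here. Of 12 neutrophil and monocyte markers, 11 were detected and all 11 were lower in pool 1, with a summed level of 1018 RPKM in pool 1 and 2429 RPKM in pool 2. S100a8 and S100a9 led them, and none was listed at 0. Of the 11, 9 were apart at 1.5-fold. Csf1r was only 1.06-fold lower in pool 1, at 2.04 RPKM against 2.17 RPKM. Cd14, which was not detected, was higher in pool 1, at 0.529 RPKM against 0.370 RPKM in pool 2. Of 10 erythroid markers, 9 were detected and all 9 were lower in pool 1, at a sum of 952 RPKM in pool 1 and 2671 RPKM in pool 2, mostly globin. Of 9 eosinophil markers, 7 were detected and all 7 were lower in pool 1, at a sum of 60.3 RPKM in pool 1 and 659 RPKM in pool 2. Mast cell and basophil markers went both ways. Of 7, 5 were detected, 3 of them higher and 2 lower in pool 1. Their sum was 113 RPKM in pool 1 and 108 RPKM in pool 2. Mcpt8 and Fcer1a were 1.61-fold and 2.17-fold higher in pool 1, and Hdc was 2.08-fold lower. Dendritic cell markers summed to 147 RPKM in pool 1 and 152 RPKM in pool 2, and platelet and megakaryocyte markers to 103 and 138 RPKM.

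The B and plasma cell list ran unevenly. Its sum was 654 RPKM in pool 1 and 453 RPKM in pool 2, carried by Ighm and Igkc, both higher in pool 1. The others, Cd79a, Cd79b, Ms4a1, Pax5, Ebf1 and Vpreb1, were lower in pool 1. Pax5 was at 0.123 RPKM in pool 1 and 5.09 RPKM in pool 2. Of the 8 B cell markers 4 were detected, 2 of them higher and 2 lower in pool 1. Ms4a1, Pax5, Ebf1 and Vpreb1 were below 1 RPKM in pool 1. T cell markers were detected for 8 of 9, with Cd8a listed at 0 and a sum of 865 RPKM in pool 1 and 1053 RPKM in pool 2. Of the 8 detected, 7 were lower in pool 1 and Trbc2 was higher. Cd3d, Cd3e, Cd3g and Cd8b1 were apart at 1.5-fold, all lower in pool 1. Stromal and endothelial markers summed to 89.5 RPKM in pool 1 and 29.4 RPKM in pool 2. The difference lay in Col1a1, Col1a2 and Sparc, at 40.5, 18.7 and 8.50 RPKM in pool 1 and 0.889, 0.451 and 0.461 RPKM in pool 2. The list did not move as a whole. The 1 of 8 detected, Pecam1, was lower in pool 1. So was Pdgfrb, at 0.174 RPKM in pool 1 and 0.820 RPKM in pool 2, while Cxcl12 was higher, at 0.325 and 0.176 RPKM. Immediate early genes were higher in pool 1 for 8 of 8. The part of these markers in the difference of Cd24a, Cd44 or the fucosyltransferases was not tested. In bulk RNA, fewer cells of a type and less RNA per cell cannot be told apart.

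**Figure D4:**
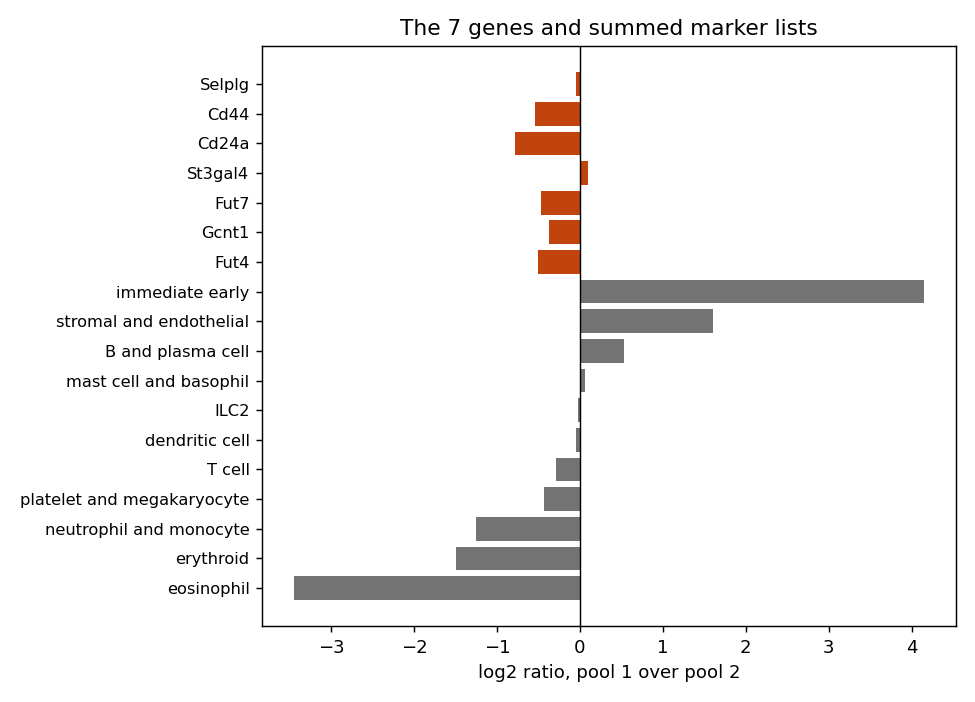
Log2 ratio, pool 1 over pool 2, of the 7 genes (red) and of the summed RPKM of 11 marker lists (grey). The sums of the eosinophil, the erythroid, and the neutrophil and monocyte lists lie at -3.45, -1.49 and -1.25. The ILC2 sum lies at -0.02 and the immediate early sum at 4.15. The 7 genes run from -0.78 for Cd24a to 0.09 for St3gal4.

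The 96 other pathway genes that were listed, in 11 lists, were mostly detected. Of them 66 were detected, or 68.8%, against 40.5% of all genes. Listed at 0 in both pools were 8, as were 9946 of all 27179 genes. Among the detected, 42 were lower and 24 higher in pool 1, where 57.3% of all detected genes were lower. This split was counted with the deposited scaling only. Called apart at 1.5-fold were 7: Cd34, Galnt3, C1galt1c1, St3gal5, Fpgt and Mmp9 were lower in pool 1, and Papss2 was higher. That is 6 lower of 66 against 5.86% of all detected genes, and 1 higher against 2.6%. The call of C1galt1c1, the chaperone of the core O-glycan enzyme, was marginal at 1.51-fold.

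Selp and Sele, the selectins of platelets and endothelium, were not detected, with Selp at 0.0432 RPKM in pool 1 and 0.0880 RPKM in pool 2 and Sele at 0.0170 and 0.0693 RPKM.

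Other scaffold proteins were present beside PSGL-1. Of 11, 6 were detected, led by the lysosomal glycoprotein gene Lamp1 at 244 RPKM in pool 1 and 221 RPKM in pool 2 and the sialomucin Cd164 at 163 and 187 RPKM. Spn, which encodes CD43, an E-selectin ligand of T cells, came close to Selplg at 129 RPKM in pool 1 and 139 RPKM in pool 2, so that Selplg exceeded it 1.35-fold and 1.29-fold. Glg1, which encodes the ligand ESL-1, was at 52.3 RPKM in pool 1 and 50.4 RPKM in pool 2. Cd34, a sialomucin of stem cells and endothelium, was the lowest detected and, of those detected, the furthest apart, at 1.26 RPKM in pool 1 and 4.48 RPKM in pool 2. Glycam1, a ligand of lymph node vessels, was listed at 0.

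The steps before branching were all transcribed. All 9 listed genes that start O-glycans were detected, and Galnt genes outside the list were not looked at. Galnt1 was at 107 RPKM in pool 1 and 116 RPKM in pool 2, and Galnt12 at 92.1 and 87.4 RPKM. Galnt3 was lowest, at 1.99 RPKM in pool 1 and 5.45 RPKM in pool 2. C1galt1, which makes the core that Gcnt1 branches, was at 17.1 RPKM in pool 1 and 18.9 RPKM in pool 2, so Gcnt1 stood at 0.582 and 0.680 of its level. Of 11 core and extension genes 8 were detected. B4galt1 and B3gnt2, which build lactosamine chains, led at 66.6 and 41.6 RPKM in pool 1 and 71.9 and 41.2 RPKM in pool 2, and B3gnt5 was lowest at 1.61 and 2.20 RPKM.

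Among 11 further sialyltransferases, 9 were detected. Behind St3gal6, St6gal1, which places sialic acid in another linkage, was at 25.5 RPKM in pool 1 and 34.2 RPKM in pool 2. Of 8 further fucosyltransferases 4 were detected, with Pofut1, the enzyme that fucosylates Notch, at 25.6 and 25.1 RPKM and Fut11 lowest at 10.8 and 14.6 RPKM. Of 11 genes for activated sugars 10 were detected. The GDP-fucose transporter Slc35c1, on which Fut4 and Fut7 depend for their substrate, was at 36.5 RPKM in pool 1 and 44.7 RPKM in pool 2, and Tsta3, the last enzyme of GDP-fucose synthesis, at 33.0 and 33.7 RPKM. The salvage genes Fuk and Fpgt were lower, at 3.62 and 8.85 RPKM in pool 1 and 3.21 and 14.2 RPKM in pool 2.

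Sulfate is added to tyrosines of PSGL-1 for binding to P-selectin. Of 9 sulfation genes 7 were detected, led by the sulfate donor transporter Slc35b2 at 51.6 RPKM in pool 1 and 52.8 RPKM in pool 2 and by the tyrosine sulfotransferase Tpst2 at 47.2 and 54.1 RPKM. Tpst2 exceeded its relative Tpst1 7.54-fold in pool 1 and 12.5-fold in pool 2. Chst2, a sulfotransferase for sugars, was lowest at 2.53 and 2.32 RPKM, and Chst4, its relative in lymph node vessels, was listed at 0. Papss2, which makes the sulfate donor, was at 10.3 RPKM in pool 1 and 6.32 RPKM in pool 2.

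On the hyaluronan side, 3 of 12 genes were detected. Srgn, which encodes serglycin, a granule proteoglycan that CD44 binds, was at 838 RPKM in pool 1 and 813 RPKM in pool 2. Stab2, an endocytic hyaluronan receptor best known from liver sinusoids, was at 92.7 RPKM in pool 1 and 83.1 RPKM in pool 2, above Cd44 in both pools. The hyaluronidase Hyal2 was at 7.81 RPKM in pool 1 and 11.2 RPKM in pool 2. The hyaluronan synthases Has1 and Has2 were listed at 0 and Has3 was at 0.159 and 0.0512 RPKM. Of the listed endothelial markers, Pecam1 was at 21.2 RPKM in pool 1 and 26.5 RPKM in pool 2, Cdh5 at 0.0745 and 0.0759 RPKM and Kdr at 0.0635 and 0.0462 RPKM.

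Of 8 genes for linkers and proteases that act on these surface proteins, 7 were detected. Moesin and ezrin, which tie the tails of PSGL-1 and CD44 to actin, were at 445 and 75.9 RPKM in pool 1 and 423 and 72.2 RPKM in pool 2 (Msn and Ezr). The protease gene Mmp9, also abundant in neutrophils, was lowest of the detected by its mean and 2.49-fold lower in pool 1, at 7.69 RPKM in pool 1 and 19.3 RPKM in pool 2. Of 4 genes for partners of CD24, 3 were detected, with Hmgb1 at 12.7 and 13.9 RPKM, the kinase Lyn at 11.1 and 15.5 RPKM, and Hmgb2 lowest at 6.89 and 8.86 RPKM. Siglecg, the mouse receptor for CD24, was at 0.159 RPKM in pool 1 and 0.589 RPKM in pool 2.

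**Figure D5:**
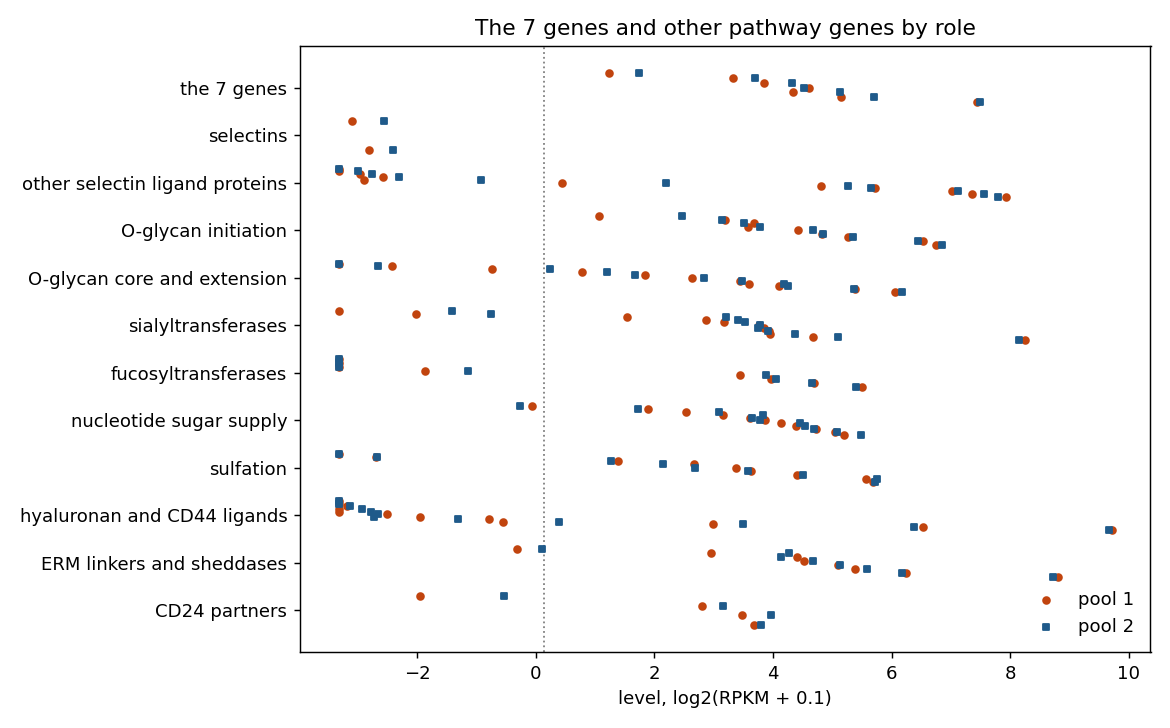
Level, log2(RPKM + 0.1), of the 7 genes and of the 96 other pathway genes by list, in pool 1 (circles) and pool 2 (squares), with the detection level of 1 RPKM dotted and genes at 0 at the left edge. Srgn, Msn, St3gal6 and Lamp1 are the highest points outside the 7 genes, and most of the hyaluronan list lies left of the line.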

How the data were processed

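The authors deposited RPKM values for 27179 Entrez gene IDs in each of 2 libraries, made per the labels' protocols with the RNeasy Micro and Illumina TruSeq RNA kits from 100 ng of total RNA. Tools named in the submitters' processing notes are CASAVA 1.8.2, featureCounts without a version, and edgeR 3.8.2 and 3.22.0, on mm10, with no step for each. The aligner is not given in the sources used here. Symbols were taken from the files and coordinates from RefSeq (GRCm38.p6) by Entrez ID.

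Levels are RPKM as deposited, and ratios are log2 of RPKM + 0.1, which understates the difference of low genes. Library totals were searched as whole numbers that give low genes whole reads, and for 17233 of 17233 genes above 0 a whole length between 20 and 130000 bases then turned both values into whole reads, within the last printed digit. When both totals were moved by 1 part in 1000, this held for only 1 of 1000 genes. Reads from the smallest such length are lower bounds, and their ratios carry exact Clopper-Pearson intervals at 95% confidence. The recovery was tested on simulated data. Python 3.11.15, pandas 2.3.3 and scipy 1.17.1 were used.

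No label says more of the pools than that each holds 8 mice, so the SD over 2 pools measures only the spread between these samples. The named genes are the 7, and of each pathway list the highest 2, the lowest detected and those 1.5-fold apart. Some genes that the lists held are not reported here. Further genes named were picked with their values known. The members and lists were chosen with earlier results of these data known. Alternatives were other pseudocounts, detection levels, scalings and the use of 1 pool.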

Additional observations from a re-analysis of the deposited data

How the results depend on the processing

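All 7 genes were detected at 0.5, 1 RPKM and above 0, and 6 at 5 RPKM, Fut4 being the one below. Other scalings shifted every log2 ratio by 0.04 to 0.06 toward pool 1. The ratio of Selplg, -0.04 as deposited, was then 0.0131 by upper quartile, 0.0009 by median of ratios and 0.0104 by TMM, so its direction did not hold, while the other 6 ratios kept their signs under these scalings and pseudocounts of 0.01 and 1. Cd24a alone was apart at 1.5-fold under every alternative run. Other pathway genes 1.5-fold apart numbered 7, with 4 at 5 RPKM and 14 above 0, and 2-fold apart 4, with 1 and 7. All genes 1.5-fold apart numbered 931, with 388 and 2632, and 2-fold apart 282, with 102 and 989. These filters change which genes are tested. With 1 pool alone, Fut7 held 19.7% to 24.7% of its family and St3gal4 6.49% to 6.77%. No paired analysis was possible because the study has 1 group. Depth limits Selp, Sele and the genes listed at 0.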
